A study of Homo sapiens with 4 samples.

Results

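The mitochondrial ribosomal proteins are described here in MDA-LM2 cells, derived from the human breast cancer line MDA-MB-231 for their spread to the lung, 48 h after transfection with synthetic RNA. Their genes were chosen by name alone, as every protein-coding gene whose symbol is MRPL or MRPS followed by a number. That rule gives 77 genes, 49 of the large subunit (MRPL) and 28 of the small subunit (MRPS). Pseudogenes (106) and long noncoding RNAs with such symbols (7) were left out. Of the 77 genes, 60 were among the 6480 genes tested in the series, 39 of the large and 21 of the small subunit.

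All 4 samples were transfected with a lipid reagent, and an untransfected sample was not analysed here. In 2 samples the RNA, capped and with a poly(A) tail, held tandem sRSE elements and is called the decoy. In the other 2 samples the capped, polyadenylated RNA was scrambled, which is the control. Total RNA of each sample was read on 1 Illumina beadchip of 47323 probes. The comparison is meant to show how transcript levels change once added copies of sRSE draw away the factor that binds it. The arrays do not read that factor as a protein. Whether the replicates are separate cultures is not said in the labels, so the spread behind the p-values may be technical and covers these samples alone.

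Mitochondrial ribosomes, or mitoribosomes, translate the few proteins encoded in mitochondrial DNA, all of them core subunits of the oxidative phosphorylation complexes. Every mitoribosomal protein is encoded in the nucleus, made in the cytosol and imported. The small subunit binds the messenger RNA and decodes it, and the large subunit forms the peptide bond and holds the exit tunnel. Some of the proteins have a counterpart in bacterial ribosomes, and others are found only in mitochondria.

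Array medians of raw signal lay between 76.3 and 83.9, and 13402 to 13849 probes per array were detected, meaning a detection p under 0.01. Log2 signals of all tested genes correlated at r = 0.995 between the scrambled arrays, 0.996 between the decoy arrays and 0.974 to 0.975 between groups (Pearson's r over genes, which do not count as independent replicates). The 75th percentile of raw signal was 166 and 157 on the scrambled arrays and 208 and 193 on the decoy arrays. Of the markers of this mesenchymal line, CD44, MSN and LGALS1 were detected on all arrays, LGALS1 rising by 0.46 ± 0.10 (log2 ± SE, 2 arrays per group, limma adjusted p = 0.00884), SPARC was below the detection filter, and VIM, AXL, CAV1 and S100A4 were not linked to a probe. The luminal and epithelial markers ESR1, PGR, ERBB2, CDH1, GATA3 and FOXA1 were below the filter, and EPCAM was not linked. Of 4 markers of other cells, PTPRC, COL1A1 and DCN were below the filter, while the endothelial marker PECAM1 read 165.8 and 128.8 with scrambled RNA and 271.8 and 264.0 with the decoy, a rise of 0.78 ± 0.14 (log2 ± SE, 2 arrays per group, limma adjusted p = 0.0044). Both rises lost their call without sRSE decoy replicate 2, and the part of PECAM1 in the results below was not tested.

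Mitoribosomal protein genes did not move as a block with the decoy. Of the 39 large-subunit genes measured, 9 rose, 5 fell and 25 did not pass an adjusted p of 0.05 (limma, adjusted over all 6480 genes). Of the 21 small-subunit genes, 6 rose, 1 fell and 14 did not pass. The 1 small-subunit fall, MRPS14, was detected on the scrambled arrays alone, and with the filter of detection on all 4 arrays 0 small-subunit genes fell. With each gene read by its brightest probe, the rises reached 0.83 on the log2 scale in MRPL28, and MRPL39 fell by 0.53. MRPL28 was detected on 1 of the 2 scrambled arrays, so it met the detection filter only with the decoy arrays, where it was high. With detection on all 4 arrays the largest rise was instead that of MRPL48, at 0.81, and without background correction it was MRPL48 at 0.76. With the mean of probes the largest fall was that of MRPL47, at -0.56. In whole-culture RNA, fewer cells of a kind and less RNA per cell cannot be told apart.

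As reported, the share of called genes was below that of all genes in both subunits. Of all genes tested, 44.5% were called, 21.2% as higher and 23.3% as lower with the decoy. In the large subunit 35.9% were called, 23.1% higher and 12.8% lower, and in the small subunit 33.3% were called, 28.6% higher and 4.76% lower. The shares of rises thus lay near that of all genes, and the shares of falls lay below theirs in this scaling. With median scaling the share of large-subunit falls came closer to that of all genes (12.8% against 15.5%). In the large subunit the share of falls was not lower with scaling over the probes detected on all 4 arrays (14 of 39). The share of called large-subunit genes exceeded that of all genes with that scaling (53.8% against 49.4%), with cyclic loess (43.6% against 43.2%), with a detection p under 0.05 (33.3% against 31.5%) and without a detection filter (25% against 13.5%). That of the small subunit exceeded it in the last of these settings (22.7%) and, just, with a detection p under 0.05 (31.8%). It did so too in the fit of raw signals described below (47.6% against 45.3%). Without a detection filter all genes number 15354, most of them below the filter as reported, while the subunits number 40 and 22. The share of all genes is then not a like background. These differences were not tested. The median log2 difference was -0.062 over the large and 0.058 over the small subunit, beside -0.031 over all genes, and the signs turned to 0.0064 in the large subunit with median scaling and to -0.049 in the small with scaling over the probes detected on all 4 arrays. The decoy and scrambled arrays did not overlap in 82.1% of large-subunit and 61.9% of small-subunit genes, against 75.5% of all genes.

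The split between directions depended on how the arrays were scaled. In the large subunit it was 9 higher and 5 lower as reported, 7 and 5 with median scaling, 12 and 5 with cyclic loess, and 7 and 14 with scaling over the probes detected on all 4 arrays. In the small subunit the last of these gave 4 higher and 4 lower, in place of 6 and 1. Over all genes the split was 1374 and 1512 as reported, 1591 and 1005 with median scaling, and 1470 and 1331 with cyclic loess. Scaling over the probes detected on all 4 arrays gave 1405 higher and 1796 lower. A fit of the raw signals without any normalization, added after seeing the data, gave 17 higher and 0 lower in the large subunit and 10 and 0 in the small, beside 41.3% higher and 3.95% lower over all genes. None of the 6 falls passed in that fit, where MRPL39 came closest at -0.27 (limma adjusted p = 0.0749), MRPL13 stood at -0.16 (limma adjusted p = 0.34) and MRPS14 at -0.02 (limma adjusted p = 0.897), while all 15 rises passed. The raw fit keeps the upward shift of the raw signals, which favours rises over falls, so it is no separate check on the calls.

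**Figure D1:**
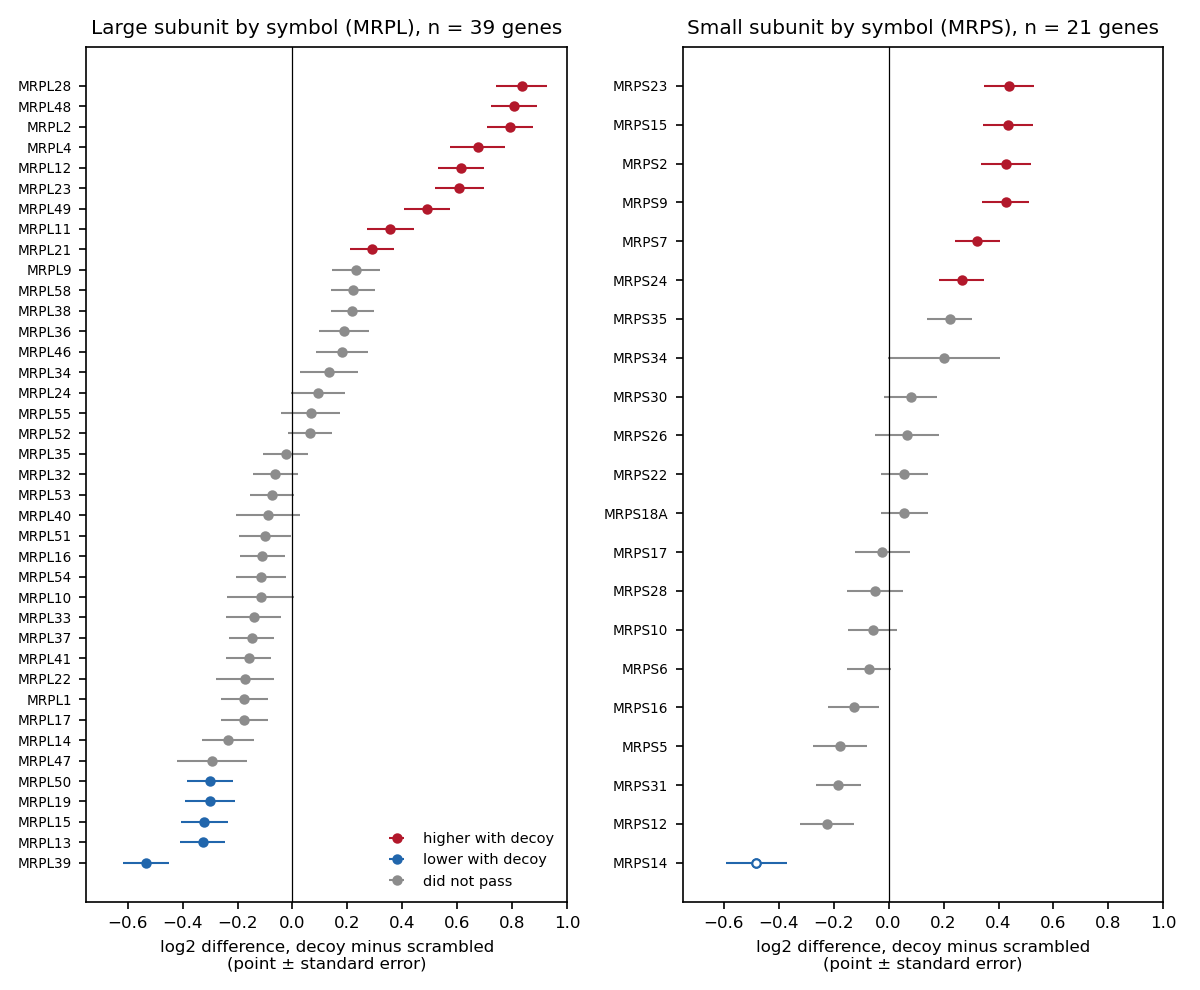
Log2 difference of decoy minus scrambled RNA (x axis) for each of the 39 large-subunit genes (left) and 21 small-subunit genes (right), with points for the fitted difference and bars for its standard error (n = 2 arrays per group). Colours mark genes that rose, fell or did not pass an adjusted p of 0.05. The differences run from -0.53 to 0.83 in the large subunit and reach 0.44 in the small. The open point is MRPS14, not well above background on either decoy array, whose position is a fitted value and not a measured size.

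Promoters of 6 called genes are printed to show the DNA at the start of MRPL28 and MRPL39, at the ends of the fitted order as reported, and the 4 called genes whose window held a motif searched for here. Each is a RefSeq window of 300 bases in GRCh38.p14, 250 before and 50 after the start of the gene, read 5′ to 3′ on the gene's strand. Capitals mark the motif, and where there are none no motif was found.
MRPL28, chr16:370489-370788, minus strand: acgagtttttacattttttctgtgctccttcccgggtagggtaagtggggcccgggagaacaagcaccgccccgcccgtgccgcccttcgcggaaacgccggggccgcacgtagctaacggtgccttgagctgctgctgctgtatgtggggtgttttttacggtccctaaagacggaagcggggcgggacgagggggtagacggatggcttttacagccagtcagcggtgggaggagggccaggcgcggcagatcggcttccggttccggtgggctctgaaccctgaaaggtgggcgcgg
MRPL39, chr21:25607432-25607731, minus strand: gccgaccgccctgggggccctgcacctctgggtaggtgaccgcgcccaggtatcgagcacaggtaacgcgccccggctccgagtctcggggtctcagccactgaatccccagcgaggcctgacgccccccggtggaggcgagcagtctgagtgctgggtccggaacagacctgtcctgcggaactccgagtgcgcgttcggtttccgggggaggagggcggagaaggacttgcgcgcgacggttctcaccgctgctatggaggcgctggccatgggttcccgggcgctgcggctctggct
MRPL50, chr9:101398569-101398868, minus strand: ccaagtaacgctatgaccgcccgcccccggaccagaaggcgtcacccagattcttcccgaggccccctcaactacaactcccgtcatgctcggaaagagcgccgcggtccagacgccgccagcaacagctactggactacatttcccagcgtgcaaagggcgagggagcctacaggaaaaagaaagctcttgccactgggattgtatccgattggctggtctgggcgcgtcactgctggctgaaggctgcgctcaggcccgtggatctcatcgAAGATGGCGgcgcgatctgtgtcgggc
MRPS24, chr7:43869468-43869767, minus strand: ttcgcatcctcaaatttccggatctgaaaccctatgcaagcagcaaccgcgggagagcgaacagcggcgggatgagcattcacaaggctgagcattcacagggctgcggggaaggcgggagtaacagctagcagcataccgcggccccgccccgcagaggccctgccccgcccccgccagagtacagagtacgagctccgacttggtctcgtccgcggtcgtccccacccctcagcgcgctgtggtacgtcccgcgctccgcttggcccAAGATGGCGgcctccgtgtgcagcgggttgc
MRPS2, chr9:135499715-135500014, plus strand: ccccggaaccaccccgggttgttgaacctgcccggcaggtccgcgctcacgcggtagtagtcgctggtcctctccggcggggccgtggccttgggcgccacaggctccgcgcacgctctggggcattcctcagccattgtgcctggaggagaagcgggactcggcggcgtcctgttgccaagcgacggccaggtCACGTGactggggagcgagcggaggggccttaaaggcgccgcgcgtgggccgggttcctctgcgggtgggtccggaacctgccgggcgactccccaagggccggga
MRPL49, chr11:65121933-65122232, plus strand: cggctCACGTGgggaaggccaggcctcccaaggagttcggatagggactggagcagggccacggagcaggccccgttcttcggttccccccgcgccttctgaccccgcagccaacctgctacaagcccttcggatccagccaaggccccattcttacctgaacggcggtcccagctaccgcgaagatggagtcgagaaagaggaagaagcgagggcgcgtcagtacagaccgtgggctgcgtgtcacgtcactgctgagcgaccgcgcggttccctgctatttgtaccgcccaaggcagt

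The motifs searched, on both strands, were those of 4 known regulators of mitochondrial or growth genes: GCGCATGCG for NRF1, CCGGAAGT for the ETS family, AAGATGGCG for YY1 and CACGTG, the E-box. None of these strings lies within another. RefSeq held 85 windows for 69 of the 77 genes, among 35116 windows of all genes. The ETS motif stood in 16.5% of mitoribosomal windows and 4.14% of all windows, and the YY1 motif in 15.3% against 1.75%. The NRF1 motif was in 3.53% against 1.92%, and the E-box in 10.6% against 7.26%. These shares describe the letters of the windows and were not tested.

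Of the 19 windows of the 16 called genes that have one, 2 held the YY1 motif and 2 the E-box (10.5% each, against 1.75% and 7.26% of all windows), and 0 held the ETS or the NRF1 motif (4.14% and 1.92% of all windows). With so few windows these shares say little. Counted from the start of the gene, the YY1 motif began at base 24 in MRPL50, which fell, and at base 20 in MRPS24, which rose. The E-box began at base -56 in MRPS2 and at base -245 in MRPL49, both of which rose. MRPL28 and MRPL39 held none of the 4, which says only that these letters are not in these windows.

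Among large-subunit genes, those of core proteins with a bacterial counterpart gave 7 of the 9 rises and 23 of the 39 genes measured. Of these 23 genes 30.4% rose, against 21.2% of all genes. MRPL28 had raw signals of 130.5 and 129.8 with scrambled RNA and 258.7 and 223.3 with the decoy, and was detected on 1 of the 2 scrambled arrays. It thus met the detection filter only with the decoy arrays, where it was high, so the size and test of its rise are uncertain. MRPL2, whose protein lies near the peptidyl transferase centre, read 763.4 and 695.8 against 1534.4 and 1317.2. In each, both decoy arrays lay well above both scrambled arrays. After normalization MRPL28 rose by 0.83 ± 0.09 and MRPL2 by 0.79 ± 0.08 (log2 ± SE, 2 arrays per group, limma adjusted p = 8.58e-04 and 8.48e-04), or 1.78-fold and 1.73-fold.

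MRPL4 and MRPL23, whose proteins lie along the exit tunnel, both rose. MRPL4, whose protein lines the tunnel, read 212.1 and 208.7 with scrambled RNA and 378.5 and 389.5 with the decoy. MRPL23, whose protein lies at the tunnel exit, read 570.9 and 580.0 against 1068.3 and 953.1. Again the groups did not overlap. The rises were 0.67 ± 0.10 for MRPL4 and 0.61 ± 0.09 for MRPL23 (log2 ± SE, 2 arrays per group, limma adjusted p = 0.00238 and 0.00228). Other proteins known around the tunnel, named after their values were seen, did not pass, with MRPL17 at -0.18 ± 0.09, MRPL22 at -0.17 ± 0.11 and MRPL24 at 0.09 ± 0.10 (limma adjusted p = 0.131, 0.216 and 0.469).

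The stalk, the mobile arm of the large subunit that recruits translation factors, had members on both sides of the threshold. MRPL12, the stalk protein itself, read 419.6 and 401.4 with scrambled RNA and 749.7 and 706.5 with the decoy, a rise of 0.61 ± 0.08 (log2 ± SE, 2 arrays per group, limma adjusted p = 0.00164). MRPL11, at the base of the stalk, read 1549.1 and 1502.2 against 2231.3 and 2061.7 and rose by 0.36 ± 0.08 (limma adjusted p = 0.0127). In both genes, by the brightest probe, the decoy arrays stood above the scrambled arrays. Another detected probe of MRPL11 stood at -0.31 ± 0.11. With the mean of probes MRPL11 was at 0.11 and did not pass (limma adjusted p = 0.357). MRPL10, which anchors MRPL12, read 457.6 and 530.4 against 575.7 and 536.5, with a fitted difference of -0.12 ± 0.12 that did not pass (limma adjusted p = 0.462). Its normalized groups overlapped.

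Of the 16 measured large-subunit genes whose proteins are found only in mitochondria, 2 rose (12.5%, against 21.2% of all genes). MRPL48, a protein of the central protuberance, read 652.4 and 613.4 with scrambled RNA and 1368.9 and 1144.7 with the decoy. The rise was 0.81 ± 0.08, or 1.75-fold (log2 ± SE, 2 arrays per group, limma adjusted p = 8.48e-04), close to those of MRPL28 and MRPL2. MRPL49, chosen after its value was seen, read 624.7 and 546.3 against 1019.3 and 884.4 and rose by 0.49 ± 0.08 (limma adjusted p = 0.00351). MRPL21, a counterpart of a bacterial protein and likewise chosen after its value was seen, completed the 9 rises with 0.29 ± 0.08 (limma adjusted p = 0.0222). MRPL58, the ribosome-bound peptidyl-tRNA hydrolase that frees stalled chains, read 805.3 and 731.4 against 1104.3 and 981.2, with a normalized difference of 0.22 ± 0.08 that did not pass (limma adjusted p = 0.0569). MRPL37, another protein found only in mitochondria, read 3452.8 and 3021.9 against 3314.1 and 2976.1 and stood at -0.15 ± 0.08 (limma adjusted p = 0.175).

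With genes read by their brightest probe, MRPL39, a large-subunit protein with no bacterial counterpart, fell most among those measured in both groups. Its probe read 1032.3 and 948.7 with scrambled RNA and 891.5 and 753.7 with the decoy, so both decoy arrays lay below both scrambled arrays. It fell by 0.53 ± 0.08, or 1.45-fold (log2 ± SE, 2 arrays per group, limma adjusted p = 0.00278). MRPL13, a counterpart of a bacterial protein, read 1796.4 and 1646.3 against 1591.1 and 1497.5 and fell by 0.33 ± 0.08 (limma adjusted p = 0.0148). MRPL50, found only in mitochondria, read 1935.0 and 1779.7 against 1713.7 and 1662.7 and fell by 0.30 ± 0.08 (limma adjusted p = 0.0232). In these 3 genes the raw signals already separated by group.

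In the other 2 large-subunit genes that fell, both counterparts of bacterial proteins, the raw signals overlapped. MRPL15 read 1580.3 and 1452.0 with scrambled RNA and 1496.3 and 1261.3 with the decoy, and MRPL19 read 1108.7 and 1007.7 against 1008.1 and 1009.1. Only after normalization were both decoy arrays lower, by 0.32 ± 0.08 in MRPL15 and 0.30 ± 0.09 in MRPL19 (log2 ± SE, 2 arrays per group, limma adjusted p = 0.0191 and 0.0312). The 25 large-subunit genes that did not pass ran from -0.29 to 0.23.

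Small-subunit rises were smaller than the largest of the large subunit and close to each other in size. MRPS23, found only in mitochondria, read 545.6 and 462.1 with scrambled RNA and 804.6 and 782.3 with the decoy. MRPS15, a counterpart of a bacterial protein, read 1489.6 and 1211.6 against 2194.8 and 1846.4. Both rose by 0.44 ± 0.09 (log2 ± SE, 2 arrays per group, limma adjusted p = 0.0075 and 0.00798), with no overlap between groups.

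MRPS2 and MRPS9, counterparts of bacterial proteins, rose by a like amount. MRPS2, which is mutated in a form of mitochondrial disease, read 439.2 and 450.4 with scrambled RNA and 732.7 and 670.3 with the decoy. MRPS9 read 546.7 and 514.9 against 845.4 and 818.5. All decoy values exceeded the scrambled values, and the normalized rises were 0.43 ± 0.09 in MRPS2 and 0.43 ± 0.08 in MRPS9 (log2 ± SE, 2 arrays per group, limma adjusted p = 0.00823 and 0.00647).

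The remaining rises were those of MRPS7 and MRPS24, also counterparts of bacterial proteins. MRPS7 read 1093.8 and 1002.5 with scrambled RNA and 1525.7 and 1434.6 with the decoy and rose by 0.32 ± 0.08 (log2 ± SE, 2 arrays per group, limma adjusted p = 0.016). MRPS24 read 2926.2 and 2632.6 against 3854.9 and 3323.4 and rose by 0.27 ± 0.08 (limma adjusted p = 0.0326). These are the smallest calls among the small-subunit rises. The only small-subunit gene that fell was MRPS14, another counterpart of a bacterial protein, with raw signals of 158.5 and 135.7 against 156.6 and 132.7. These raw signals overlapped, and the probe was not well above background on either decoy array. The gene passed the detection filter through the scrambled arrays alone, so its test rests on a probe chosen where it was high. After normalization MRPS14 was at least 1.23-fold lower with the decoy (limma adjusted p = 0.0116), where the bound sets the mean of the scrambled arrays against, on each decoy array, the higher of the probe's own signal and the lowest signal detected there.

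The small-subunit proteins of the decoding region include MRPS7, described above, MRPS12 and MRPS5. MRPS12, which lies at the decoding site, read 4610.0 and 4525.8 with scrambled RNA and 4146.8 and 4186.1 with the decoy. Its raw signals separated, but the normalized difference of -0.22 ± 0.10 did not pass (log2 ± SE, 2 arrays per group, limma adjusted p = 0.0984). MRPS5, near the messenger RNA channel, read 533.3 and 538.1 against 638.7 and 522.6 and stood at -0.18 ± 0.10 after normalization (limma adjusted p = 0.177).

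MRPS16, MRPS22 and MRPS34, which like the called MRPS2, MRPS7 and MRPS14 are mutated in forms of mitochondrial disease, did not pass. MRPS16 read 664.2 and 598.8 with scrambled RNA and 686.5 and 701.2 with the decoy, MRPS22 read 2045.2 and 1690.2 against 2291.4 and 2001.0, and MRPS34 read 166.0 and 124.1 against 177.8 and 211.3. After normalization they stood at -0.13 ± 0.09, 0.06 ± 0.09 and 0.20 ± 0.21 (limma adjusted p = 0.297, 0.609 and 0.448), with the widest spread in MRPS34. MRPS18A and MRPS30 carry small-subunit symbols but are known as large-subunit proteins in the human mitoribosome. They read 452.4 and 432.4 against 569.9 and 548.5, and 1715.9 and 1694.2 against 2234.5 and 1803.6. At 0.06 ± 0.09 and 0.08 ± 0.10 neither passed (limma adjusted p = 0.612 and 0.518), so the numbers of rises and falls are the same wherever they are placed.

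By origin, counted after the values were known, 7 of 23 large-subunit genes with a bacterial counterpart rose and 3 fell, against 2 and 2 of the 16 found only in mitochondria. In the small subunit 5 of 13 genes with a counterpart rose and 1 fell, against 1 and 0 of 8. In that order 43.5% and 25% were called in the large and 46.2% and 12.5% in the small subunit. Of all genes 44.5% were called, so the shares with a counterpart lay near that of all genes. These differences were not tested.

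Before normalization most mitoribosomal signals were higher with the decoy, as were those of the array. The median raw log2 difference was 0.20 over the large and 0.24 over the small subunit, beside 0.22 over all genes. Raw signals of 34 of the 60 genes were higher on both decoy arrays than on both scrambled arrays (56.7%, against 57.9% of all genes), 5 were lower (8.33%, against 10.9%), and 21 overlapped. All 15 genes called as higher separated in the raw signals, with a median raw log2 difference of 0.66. Of the 6 genes called as lower, 3 separated and 3 overlapped, with a median of -0.14. The calls rest on these same signals, and the raw signals of most genes lay higher with the decoy. This contrast between rises and falls is thus no separate support for the calls.

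**Figure D2:**
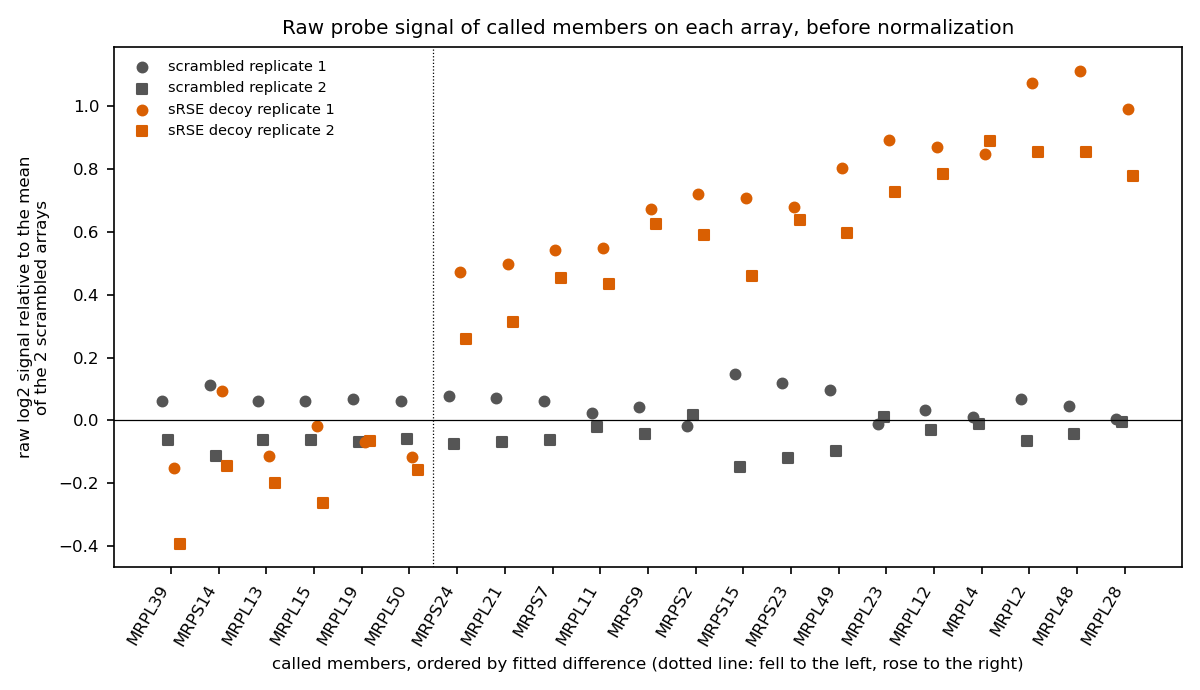
Raw log2 signal of the 21 called genes on each array (y axis, relative to the mean of the 2 scrambled arrays, before background correction and normalization), ordered by fitted difference. In all 15 genes that rose both decoy arrays lie above both scrambled arrays, whereas the 6 that fell lie close to the scrambled arrays and overlap them in MRPL15, MRPL19 and MRPS14. Raw signals of most genes of the array lay higher with the decoy, which favours such a separation of rises.

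The calls were recomputed under other processing. Over 15 alternatives all 21 called genes kept their sign wherever they were measured. Their groups did not overlap after normalization, so leaving out 1 array could hardly turn a sign. Of the 14 called large-subunit genes, 8 passed in each alternative that measured them, namely MRPL2, MRPL4, MRPL12, MRPL23, MRPL28, MRPL39, MRPL48 and MRPL49. MRPL28 met the detection filter only with the decoy arrays, where it was high. The alternative that asks for detection on every array left MRPL28 out, so that alternative could not test its call. The other 6 (MRPL11, MRPL13, MRPL15, MRPL19, MRPL21 and MRPL50) lost the call without sRSE decoy replicate 1 and also without sRSE decoy replicate 2, so 8 large-subunit calls were left in each case. Of the 7 called small-subunit genes 0 passed in every alternative, beside 1024 of the 2886 called genes of the array (35.5%). The difference between subunits was not tested. Without sRSE decoy replicate 1 the small-subunit calls fell to 3, and without sRSE decoy replicate 2 to 1, MRPS15. Over all genes the calls fell to 1475 and 1364 under the same settings.

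**Figure D3:**
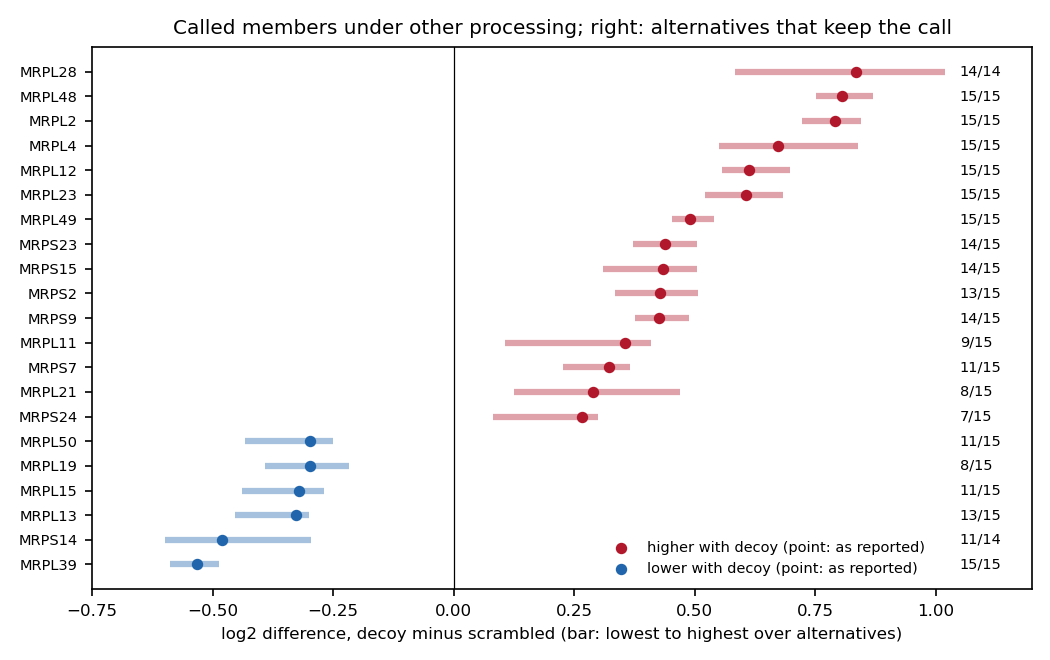
Fitted log2 difference of the 21 called genes (points, decoy minus scrambled) with bars from the lowest to the highest value over the alternatives, and on the right the number of alternatives that keep the call of those that measured the gene. No bar crosses 0, and MRPS24 (7 of 15) keeps its call least often.

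For 7 large-subunit genes several probes were detected, and the brightest stood for the gene. The probes differed in sign in 2 of them, MRPL11 and MRPL22, and 0 had probes called in opposite directions. The probes of MRPL11 gave 0.36 ± 0.09, -0.31 ± 0.11 and 0.27 ± 0.10, of which the first passed (log2, SE, limma adjusted p over all detected probes = 0.0153, 0.062 and 0.0691). Both probes of MRPL21 rose, by 0.29 ± 0.09 and 0.65 ± 0.09 (limma adjusted p = 0.0278 and 0.00139). MRPL47, counted among those that did not pass, had a brighter probe at -0.29 ± 0.13 and a dimmer one that read 499.3 and 476.0 with scrambled RNA and 380.9 and 345.4 with the decoy. That dimmer probe fell by 0.83 ± 0.09 (limma adjusted p = 7.00e-04), so the probes of MRPL47 agree in sign but not in the call. Likewise the dimmer probe of MRPL24 rose by 0.28 ± 0.09 (limma adjusted p = 0.0309), while its brighter probe stood at 0.09 ± 0.10.

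**Figure D4:**
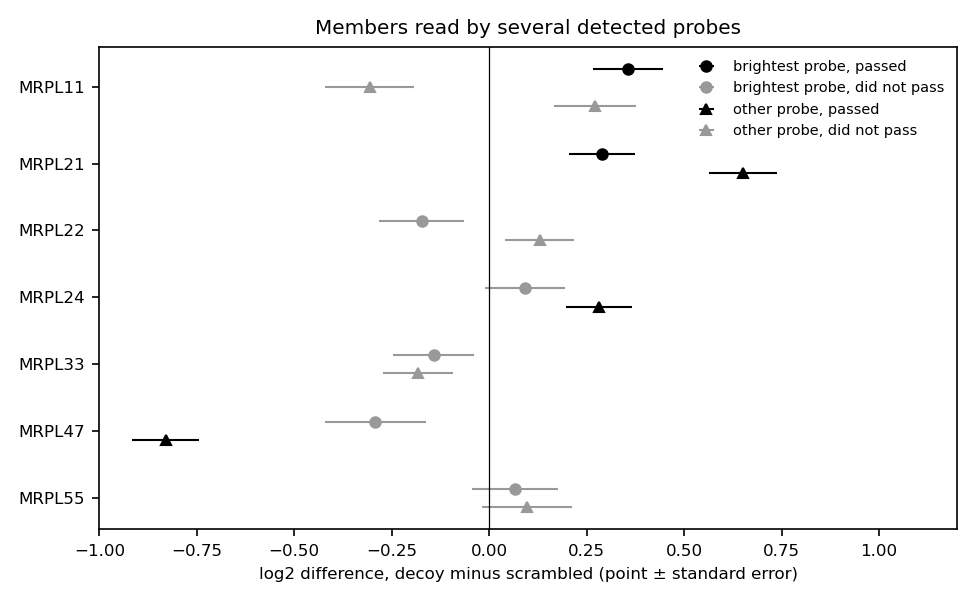
Log2 difference of decoy minus scrambled RNA (x axis, bars are standard errors, n = 2 arrays per group) for each detected probe of the 7 genes read by several. Circles are the brightest probe and triangles the others, with black for an adjusted p under 0.05. The probes of MRPL11 and MRPL22 lie on both sides of 0, and the dimmer probe of MRPL47 lies far below the brighter one.

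The other 17 genes of the family have no tested value. Probes of MRPL43 and MRPS25 were linked but detected on 0 and 1 arrays, MRPL27 had no accession in the authors' deposited table, and 14 genes had accessions that could not be linked to a probe. For these 14 the authors' deposited table gives log ratios of decoy to scrambled RNA without replicates, 5 above 0 and 9 below. They match log10 ratios of transformed group means and are not on the scale of the log2 differences above. By percentile among all accessions of the authors' deposited table they ran from 6.003 in MRPS18C to 94.0 in MRPS11. The disease genes MRPL3 and MRPL44 stood at percentiles 10.5 and 86.1 of the authors' deposited table. In the authors' deposited table MRPS27, found only in mitochondria, stood at 92.9, and MRPS18B, a paralogue of MRPS18C, at 17.9.

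Other genes that serve the mitoribosome had calls in both directions, as did all genes. The list of other mitoribosomal proteins, those with other symbols, also held OXA1L, the membrane insertase that docks the mitoribosome and is not a protein of it. Of the 5 genes of this list that were measured, OXA1L alone rose, by 0.75 ± 0.09 (limma adjusted p = 0.00121). Its raw signals went from 572.9 and 542.1 to 1187.6 and 958.0. AURKAIP1, a small-subunit protein, fell by 0.35 ± 0.09 (limma adjusted p = 0.0207), and GADD45GIP1, DAP3 and CHCHD1 did not pass (40.0% called, against 44.5% of all genes). AURKAIP1 lost its call without scrambled replicate 2 and without sRSE decoy replicate 1.

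Of 30 genes listed as assembly factors 19 were measured, of which 4 rose, 4 fell and 11 did not pass (42.1% called, near the 44.5% of all genes). The RNA helicase DHX30 rose by 0.54 ± 0.09, the assembly factor METTL17 by 0.47 ± 0.09 and PUSL1, a pseudouridine synthase homologue, by 0.53 ± 0.10 (log2 ± SE, 2 arrays per group, limma adjusted p = 0.00418, 0.00557 and 0.00615), while NSUN4, an RNA methyltransferase, fell by 0.46 ± 0.09 (limma adjusted p = 0.00712). Named after their values were seen, ERAL1, a chaperone of the small-subunit RNA, rose by 0.35 ± 0.08, and NSUN3, RPUSD4 and MALSU1 fell by 0.37 ± 0.10, 0.26 ± 0.08 and 0.25 ± 0.09. NSUN3, counted in this list although its enzyme modifies a transfer RNA, was detected on 1 of the 2 decoy arrays. NSUN3 thus met the detection filter only with the scrambled arrays, where it was higher after normalization, so the size and test of its fall are uncertain. Its raw signals overlapped, at 163.9 and 144.8 with scrambled RNA and 172.1 and 147.6 with the decoy. Called assembly factors numbered 2 without sRSE decoy replicate 1 (DHX30 and METTL17) and 2 without sRSE decoy replicate 2 (DHX30 and NSUN4).

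Of 16 factors of mitochondrial translation 11 were measured, of which 2 rose, 3 fell and 6 did not pass (45.5% called, near the 44.5% of all genes). The elongation factor TSFM rose by 0.55 ± 0.11 and LRPPRC, which stabilises mitochondrial messenger RNA, by 0.40 ± 0.08 (log2 ± SE, 2 arrays per group, limma adjusted p = 0.00761 and 0.00734). MTRFR, a rescue factor for stalled ribosomes, fell by 0.61 ± 0.10 and SLIRP, the partner of LRPPRC, by 0.36 ± 0.08 (limma adjusted p = 0.0035 and 0.00989). GFM1, an elongation factor named after its value was seen, fell by 0.32 ± 0.08 (limma adjusted p = 0.0189). The partners LRPPRC and SLIRP thus had calls of opposite sign. Called factors numbered 2 without sRSE decoy replicate 1 (MTRFR and TSFM) and 2 without sRSE decoy replicate 2 (MTRFR and LRPPRC).

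Genes of mitochondrial transcription and its nuclear regulators were mostly unmeasured, with 6 of 16 tested and 33.3% of these called. POLRMT, the mitochondrial RNA polymerase, rose by 0.25 ± 0.08 and TFAM, which packages mitochondrial DNA and activates its transcription, fell by 0.23 ± 0.08 (log2 ± SE, 2 arrays per group, limma adjusted p = 0.0375 and 0.0482). Both calls were lost when any 1 array was left out. GABPB1, a subunit of an ETS-family activator, and the coactivator PPARGC1A did not pass, at 0.22 ± 0.09 and -0.20 ± 0.09. NRF1 was below the detection filter, and GABPA and YY1 were not linked to a probe.

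As reported, the mitoribosomal genes held a smaller share of falls than the cytosolic ribosome or the respiratory chain. Of 49 cytosolic ribosomal protein genes, 9 rose and 11 fell (40.8% called, 18.4% higher and 22.4% lower), with a median log2 difference of -0.082. Of 59 subunits of oxidative phosphorylation, 8 rose and 16 fell (40.7% called, 13.6% higher and 27.1% lower), with a median of -0.088. The falls made up 12.8% of large-subunit and 4.76% of small-subunit mitoribosomal genes, beside 23.3% of all genes, and the differences between lists were not tested. Under scaling over the probes detected on all 4 arrays the falls numbered 14 of 39 genes in the large (35.9%) and 4 of 21 in the small subunit (19.0%). Of all genes 27.7% fell in that setting. The falls then numbered 30 of the 49 cytosolic genes and 27 of the 59 oxidative phosphorylation subunits.

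**Figure D5:**
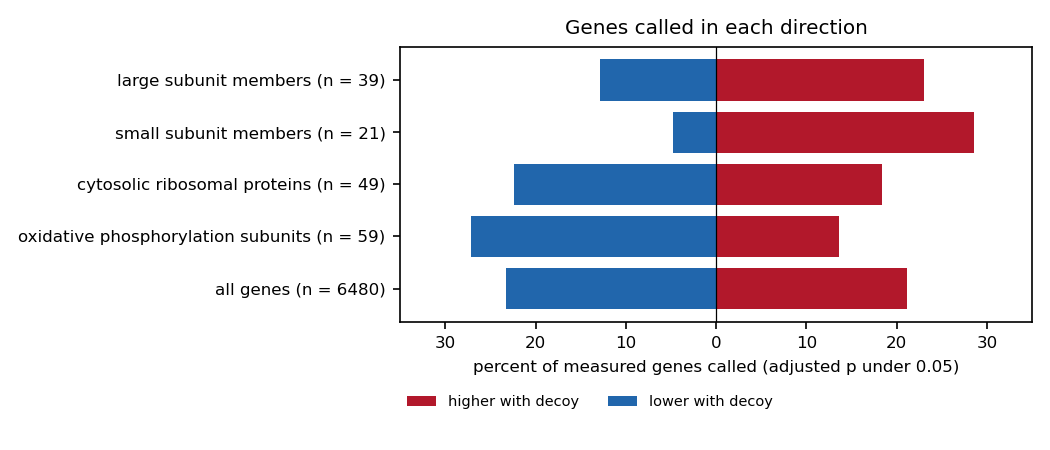
Percent of measured genes called as higher (right) or lower (left) with the decoy, for both subunits of the mitoribosome, the cytosolic ribosomal proteins, the subunits of oxidative phosphorylation and all 6480 genes. Falls are 12.8% in the large and 4.76% in the small subunit, against 23.3% of all genes (a lower share that does not hold in the large subunit with scaling over the probes detected on all 4 arrays), while rises are 23.1% and 28.6% against 21.2%.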

How the data were processed

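Total RNA of 4 samples, 2 per group by the sample labels, was read on Illumina beadchips. Raw intensities and a detection p-value for each probe were deposited by the authors, with no normalization, per the file headers. The authors' normalized intensities were made with lumi as the submitters' processing notes have it, with no version stated in the sources used here. Per the file headers, a last deposited table gives a log fold change per accession, and the values match a log10 ratio of transformed group means. In 3 cells the detection p held a signal and was filled in from probes of like signal.

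No table given here pairs probes with genes. Each accession was linked to the probe whose recomputed ratio was within 6e-10 of its own and unique. Of 39747 accessions 32466 (81.7%) were linked, 16740 of them with a symbol in RefSeq (GRCh38.p14, names only). After shifting the values so that no true link could remain, 8 repeats made 112.5 links on average (0.347%).

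Raw intensities were corrected by normexp (offset 16) and quantile normalized, then log2 transformed (limma 3.58.1, R 4.3.3). A probe was kept if detected (p under 0.01) on 2 or more of the 4 arrays, and a gene is its brightest such probe. The comparison used lmFit and eBayes of limma, and p-values were adjusted by Benjamini-Hochberg over 6480 genes, with a threshold of 0.05. Errors are standard errors of the fit, and 2 arrays per group limit the precision. The scripts were tested on simulated data.

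The members and lists were chosen with earlier results of these data known. Values are given on every array for up to 6 called genes with the largest changes per direction and subunit and for measured members of known roles, and up to 4 genes of smallest p are named in each other list. Alternatives changed the scaling, background correction, filters, probe choice, block and arrays used.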

Additional observations from a re-analysis of the deposited data

How the results depend on the processing

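The 21 called mitoribosomal genes kept their sign under the 15 alternatives wherever they were measured, which their separation after normalization made likely beforehand. Single named genes were also compared one by one with each alternative and with the raw fit added after seeing the data. Of these 861 comparisons, 706 stayed on the same side of the threshold with the same sign. The replicate number as a block gave 15 large-subunit, 7 small-subunit and 2828 calls in all. Deviations of same-numbered arrays correlated at -0.011. With 2 arrays per group this value cannot settle whether the numbers pair the arrays, and the labels do not say. With 1 array left out, the calls ran from 1364 to 2478 over all genes, from 8 to 11 in the large and from 1 to 6 in the small subunit, from 1 to 3 among other mitoribosomal proteins, from 2 to 7 among assembly factors, from 2 to 6 among translation factors, at 0 among transcription genes, from 8 to 18 among cytosolic ribosomal proteins and from 7 to 18 among oxidative phosphorylation subunits. A lone array is then assumed to vary like the other group. The large-subunit median ran from -0.066 to 0.0089 and the small-subunit median from -0.0037 to 0.071.

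Without a detection filter, which raises the number of genes tested, 1 gene of the list of other mitoribosomal proteins and 0 transcription genes were called. So were 13 cytosolic ribosomal proteins and 13 oxidative phosphorylation subunits. Transcription genes also numbered 1 with cyclic loess and 0 with a detection p under 0.05 or with the block. Scaling over the probes detected on all 4 arrays gave 34 cytosolic ribosomal calls and a small-subunit median of -0.049. The large-subunit median was 0.0064 with median scaling and -0.025 with the mean of probes. On raw signals without normalization, added after seeing the data, the median of all genes moved to 0.22. Those of the large and small subunit moved to 0.200 and 0.236, and cytosolic ribosomal calls numbered 12. Among the genes compared one by one, the signs of NSUN3 (0.049), MRPL10 (0.17), MRPS16 (0.14), MRPS5 (0.11), GADD45GIP1 (0.049) and PPARGC1A (0.17) turned, none of them passing. Over all 60 measured mitoribosomal genes 47 raw differences were above 0, against 30 as reported, so signs of genes not listed here turned too. Among genes compared one by one that passed in neither setting, signs also turned for MRPS22 with median scaling (-5.51e-04), for MRPS22 (-0.082) and MRPS30 (-0.049) with scaling over the probes detected on all 4 arrays, and with 1 array left out for MRPL10 (-0.29 to 0.060), MRPS22 (-0.0037 to 0.12), MRPS30 (-0.0055 to 0.17) and MRPS34 (-0.065 to 0.46). Outside these genes, signs turned under some alternative for MRPL24, MRPL35, MRPL40, MRPL53, MRPL55, MRPS10, MRPS17, MRPS26 and MRPS28, none passing with the turned sign. The cause of each change was not tested. Probes near background, such as those of MRPL28 and MRPS14, limit what the arrays can resolve.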
